A study of Homo sapiens with 6 samples.

Results

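The hnRNP and SR splicing factor genes were followed in RNA-seq libraries of K562, an immortalised leukaemia line of erythroid character. The genotypes were wild-type RUNX1 (WT, 3 libraries) and RUNX1 R320* (3 libraries), in which a stop codon cuts short a transcription factor of blood cell development, and the series asks how their transcripts differ. All libraries came from the K562 line with no other treatment named. How R320* was introduced, whether from 1 clone and whether in separate cultures per replicate, is not given in the sources used here, so p-values measure the spread between these libraries, which may be technical. Members were the protein-coding rows of the deposited RPKM table (reads per length of gene and depth of library) whose name starts with HNRNP or with SRSF and a digit, plus TRA2A, TRA2B, U2AF1, U2AF2, SF3B1 and ZRSR2. This gave 44 of 60131 rows, with 26 hnRNP genes, 12 SR genes, 2 TRA2 genes and 4 genes of 3′ splice site recognition. The table of normalized counts (reads per gene divided by 1 factor per library) had a row for 43 of them and none for HNRNPA1P48.

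Heterogeneous nuclear ribonucleoproteins (hnRNPs) coat nascent transcripts, and many of them repress the use of nearby exons. SR proteins carry an RNA recognition motif and a domain rich in arginine and serine, and many of them promote exon use by drawing U1 and U2 particles to splice sites. The 3′ splice site is read by the U2AF heterodimer and by the SF3B1 complex at the branch point, and SF3B1, SRSF2, U2AF1 and ZRSR2 are recurrently mutated in myeloid malignancies. Many of these genes limit their own protein through transcripts that nonsense-mediated decay removes.

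Some members have near-identical copies, which bears on what a gene's count can mean. In GENCODE v29 transcripts, HNRNPA1 and HNRNPA1L2 had 15 mismatches over 960 coding bases (98.44% identity). U2AF1 and its copy U2AF1L5, also on chromosome 21, had 0 mismatches over 720 coding bases, so the first 120 coding bases of U2AF1, shown because its values turn on the copy, are also those of U2AF1L5.
U2AF1: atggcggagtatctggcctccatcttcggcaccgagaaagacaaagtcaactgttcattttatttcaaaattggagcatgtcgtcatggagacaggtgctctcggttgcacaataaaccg
Of all 31-base words in the protein-coding transcripts of U2AF1, 95.22% also occurred in U2AF1L5. For HNRNPA1L2, 76.38% of the words occurred in other genes, and for HNRNPA1 27.76%. SRSF1 shared 59.34% of its words with other annotated genes, HNRNPUL2 45.41%, SRSF9 44.45%, ZRSR2 34.97% and SRSF2 31.85%. HNRNPLL, HNRNPA0, SRSF4, SRSF7 and TRA2B shared none of theirs. Values of the genes with shared words are uncertain to the extent that the counting split reads between copies or overlapping genes.

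RUNX1 itself, the gene with the stop codon, had normalized counts of 2969, 2922 and 2908 in WT against 5209, 5026 and 5261 in R320*, and gene totals do not test the label. Normalized counts summed to between 29831668 and 30503843 per library. All 12 K562 and erythroid markers reached a mean of 10 normalized counts. Of 4 epithelial markers 1 did, none was at 0 in all libraries, and their sum ran from 2296 to 2350 in WT and from 5028 to 5274 in R320*. T and B cell markers (3 of 7, CD2 at 0) summed to between 1027 and 1074 in WT and between 759.1 and 834.4 in R320*. Fibroblast markers (2 of 5, none at 0) summed to between 3424 and 3516 in WT and between 2693 and 2920 in R320*. Monocyte markers (1 of 4, FCN1 at 0) summed to between 54.4 and 69.8 in WT and between 11.8 and 17.9 in R320*, and neuronal markers (1 of 3, SNAP25 at 0) to between 35.6 and 42.5 and between 33.4 and 44.7. The part of these markers in the results was not tested.

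Splicing factor transcripts moved in both directions between the genotypes, and by the fitted log2 fold changes over all 6 libraries every tested member differed by less than 1.5-fold. With 1 library left out ZRSR2 reached -0.64 (without WT replicate 1) and U2AF1, which was not called, -0.94 (without WT replicate 2). Tests were made on log2(normalized count + 1) for genes that reached 10 normalized counts in 3 or more libraries, with limma and Benjamini-Hochberg adjustment over all 14299 genes tested, and a gene was called below 0.05. Of the 37 members tested, 15 were higher in R320*, 9 were lower and 13 were not called. Across all genes tested 53.7% were called, 26.4% higher and 27.4% lower, beside 64.86% of the members. Without the intensity trend of the fit, 17 of 37 members and 6692 of 14299 genes were called, so the members were not above the background there. With a filter of at least 50 normalized counts in 3 or more libraries, 24 of 37 members and 7191 of 12036 genes were called. Many members were among the highest genes in RPKM, and no background of genes at a like level was taken. The median log2 fold change (R320* minus WT) was 0.03 for members and 0.01 for all genes. The median size of the change was 0.15 for members against 0.27 for all genes, of which 75.82% differed by less than 1.5-fold. For 24 members the libraries of the genotypes did not overlap, against 59.8% of all genes. In bulk RNA a change in the share of cells and a change in RNA per cell cannot be told apart.

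**Figure D1:**
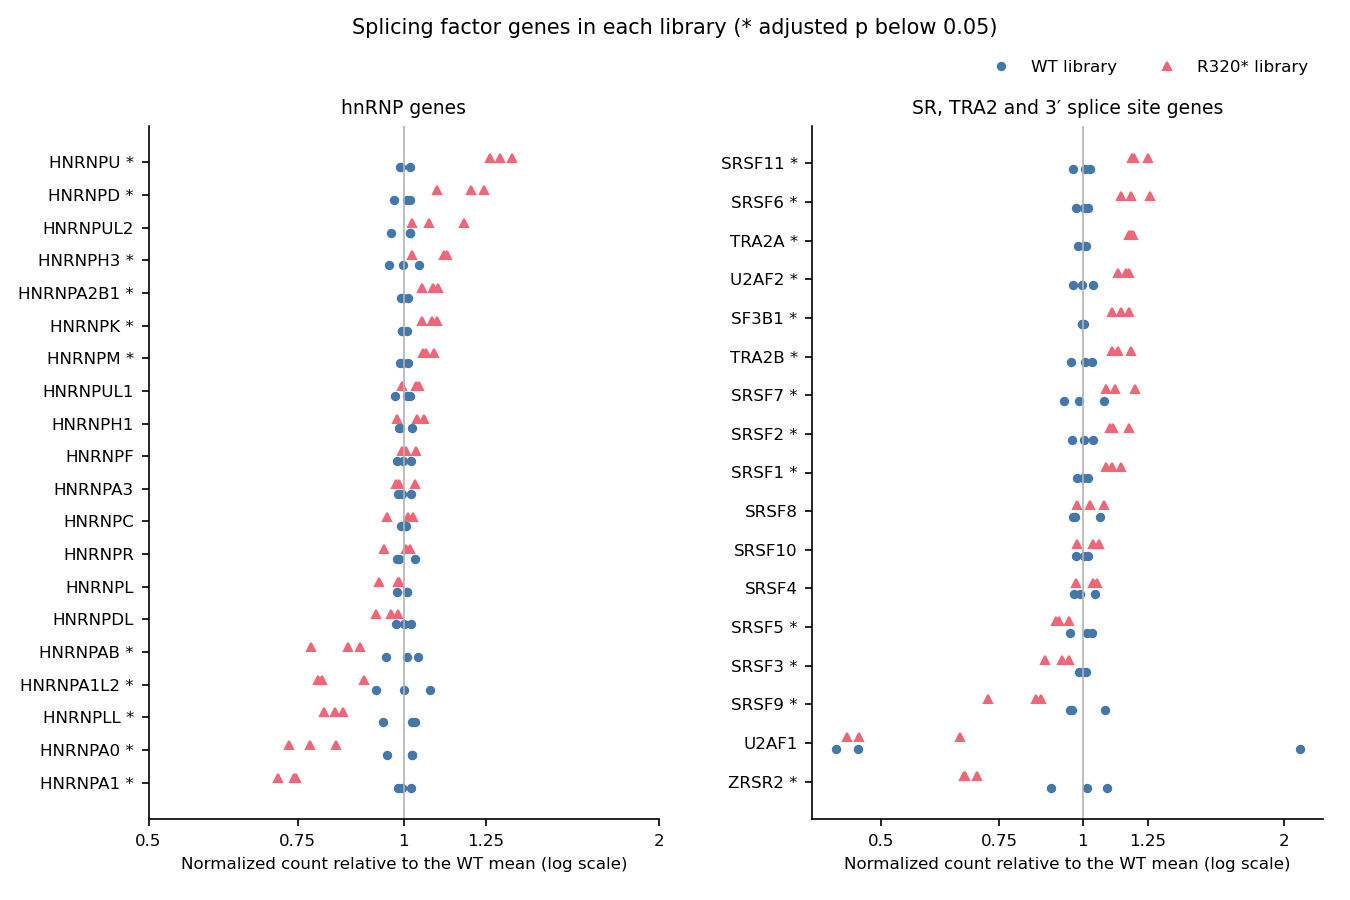
Each point is 1 library's normalized count for 1 tested gene, divided by the gene's WT mean, on a log axis, with WT libraries as circles and R320* libraries as triangles. HNRNPU lies farthest to the right and ZRSR2 and HNRNPA1 far to the left, with no overlap, while U2AF1 has 1 WT library at 517.8 normalized counts far from the other 5.

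Among the hnRNP genes 6 of 20 tested were higher, 5 lower and 9 not called, a share close to that of all genes. HNRNPU, which encodes a large nuclear protein that binds both RNA and chromatin, had the largest rise. Its normalized counts were 31654, 32596 and 31819 in WT against 40489, 42978 and 41592 in R320*. Every R320* library lay above every WT library, and the log2 fold change came to 0.38 (SE 0.03, limma adjusted p = 5.1e-08), a 1.30-fold rise. HNRNPD, whose protein binds AU-rich elements of mRNAs, had 18080, 18731 and 18843 in WT against 20291, 23055 and 22281 in R320*. The groups did not overlap, and HNRNPD rose by a log2 fold change of 0.24 (SE 0.04, limma adjusted p = 0.000163).

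HNRNPA1, a repressor of exon use and the counterpart of SR proteins at many splice sites, fell the most of the hnRNP genes. It had 92925, 95396 and 92098 normalized counts in WT and 66488, 69833 and 69382 in R320*. All R320* libraries were far below all WT libraries, with a log2 fold change of -0.45 (SE 0.03, limma adjusted p = 6.68e-09), a 1.36-fold fall. HNRNPA2B1, a close relative that is also known for binding m6A-bearing transcripts, went the other way. Its values were 48488, 48766 and 49444 in WT against 51409, 53672 and 52972 in R320*, with no overlap and a log2 fold change of 0.11 (SE 0.03, limma adjusted p = 0.00803). That call was lost under quantile normalization (log2 fold change 0.03, limma adjusted p = 0.416) and without the intensity trend (0.0762), with adjusted p from 0.00155 to 0.416 over all alternatives.

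HNRNPA0, an intronless relative that binds AU-rich elements, had 9390, 8768 and 9396 in WT against 6718, 7119 and 7633 in R320*. The R320* libraries were all lower, and HNRNPA0 fell by a log2 fold change of -0.36 (SE 0.05, limma adjusted p = 4.8e-06). HNRNPLL, known for repressing exons of CD45 in lymphocytes, had 3373, 3116 and 3400 in WT against 2655, 2738 and 2792 in R320*. The genotypes were again apart, and the log2 fold change came to -0.27 (SE 0.05, limma adjusted p = 0.000118). HNRNPAB, an A/B-type RNA-binding protein, fell by -0.25 (SE 0.05, limma adjusted p = 0.000273).

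HNRNPA1L2, the near-identical copy of HNRNPA1, had 1056, 984.0 and 914.1 in WT against 788.3, 885.1 and 780.4 in R320*. The libraries did not overlap in that table (log2 fold change -0.27, SE 0.08, limma adjusted p = 0.00689). In the RPKM table they did, at 3.61, 3.45 and 3.75 against 3.62, 3.56 and 2.73, and the call was lost (log2 fold change -0.13, limma adjusted p = 0.546; range over its alternatives 0.00399 to 0.546). HNRNPA1P48, another HNRNPA1 copy, which has a row only in the RPKM table, was at 1.71, 1.46 and 1.41 in WT against 1.33, 1.03 and 0.852 in R320*. Its libraries did not overlap and the difference was not called (log2 fold change -0.49, limma adjusted p = 0.173).

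Smaller rises in HNRNPH3, HNRNPK and HNRNPM were not called once certain libraries were left out. HNRNPH3, which binds G-rich RNA, had 5031, 5263 and 4842 in WT against 5165, 5668 and 5621 in R320*, so the genotypes overlapped (log2 fold change 0.12, SE 0.05, limma adjusted p = 0.034). In RPKM its libraries did not overlap, at 178.6, 180.3 and 182.1 against 193.9, 216.8 and 225.5 (log2 fold change 0.23, limma adjusted p = 0.0227). In counts its call was lost without WT replicate 1 (limma adjusted p = 0.0767), WT replicate 3 (0.144), R320* replicate 2 (0.147) or R320* replicate 3 (0.0972) (all alternatives 0.00505 to 0.155.) HNRNPM rose by 0.09 (SE 0.03, limma adjusted p = 0.022), and its call was lost without the same libraries (0.0672, 0.0635, 0.0516 and 0.0511) (all alternatives 0.0154 to 0.0982.) HNRNPK, a poly(C)-binding protein, rose by 0.10 (SE 0.03, limma adjusted p = 0.0104). Its call was lost without R320* replicate 2 (limma adjusted p = 0.0546) (all alternatives 0.00368 to 0.0809.)

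The hnRNP genes not called were HNRNPA3, HNRNPC, HNRNPDL, HNRNPF, HNRNPH1, HNRNPL, HNRNPR, HNRNPUL1 and HNRNPUL2, with log2 fold changes from -0.06 to 0.12. HNRNPC, which packages nascent transcripts as a tetramer with itself, was at 22286 ± 144 in WT and 22222 ± 831 in R320* (SD, n = 3). HNRNPUL2, a relative of HNRNPU, was called without R320* replicate 1 (log2 fold change 0.17, limma adjusted p = 0.0474) and not with all libraries (0.12, limma adjusted p = 0.113) (all alternatives 0.0324 to 0.436.) HNRNPCL1, HNRNPCL2, HNRNPCL3 and HNRNPCL4, copies related to HNRNPC, held at most 1.01 normalized counts in any library. HNRNPH2, the X-linked relative of HNRNPH1, was listed at 0 in 5 libraries and at 1.91 in the other, but at 22.2 to 28.7 RPKM. Its span overlaps the annotated read-through gene RPL36A-HNRNPH2, and the reason for the gap between the tables was not tested.

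Among the SR genes 5 of 11 tested were higher, 3 lower and 3 not called (72.73% called, against 53.7% of all genes). Without the intensity trend SRSF3, SRSF5 and SRSF7 were not called (limma adjusted p = 0.0922, 0.128 and 0.0906). The SR genes were then not above the share of all genes. SRSF11, an SR-like protein found with U2AF at 3′ splice sites, had 7092, 6976 and 6685 normalized counts in WT and 8672, 8241 and 8206 in R320*. The R320* libraries were all higher, by a log2 fold change of 0.28 (SE 0.04, limma adjusted p = 1.25e-05), or 1.21-fold. SRSF6, a regulator of alternative exons such as one in MAPT, had 5773, 5612 and 5839 in WT against 7244, 6781 and 6559 in R320*. It too was apart, with a log2 fold change of 0.26 (SE 0.04, limma adjusted p = 6.4e-05) in counts and 0.43 (SE 0.05, limma adjusted p = 0.000689) in RPKM.

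SRSF7, which also takes part in mRNA export, had 5583, 5306 and 6096 in WT against 6787, 6326 and 6141 in R320*. The highest WT library lay just below the lowest R320* library, and the log2 fold change came to 0.18 (SE 0.05, limma adjusted p = 0.00591). In RPKM it was not called (limma adjusted p = 0.0611), nor without the intensity trend (0.0906) (all alternatives 0.00101 to 0.0906.) SRSF2, one of the factors mutated in myeloid malignancies, had 8870, 8245 and 8590 in WT against 10037, 9497 and 9398 in R320*. The groups were apart and SRSF2 rose by a log2 fold change of 0.17 (SE 0.04, limma adjusted p = 0.00145). SRSF1, the prototype of the family, rose by 0.15 (SE 0.03, limma adjusted p = 0.00119) and was not called in RPKM (limma adjusted p = 0.0726, range 0.000205 to 0.0726).

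SRSF9, a close relative of SRSF1, fell the most of the SR genes. It had 2723, 2709 and 3058 in WT against 2041, 2451 and 2413 in R320*. All R320* libraries were lower, with a log2 fold change of -0.30 (SE 0.07, limma adjusted p = 0.00115) in counts and -0.54 (SE 0.05, limma adjusted p = 0.000358) in RPKM, where it went from 182.3 ± 2.41 to 125.7 ± 7.46 (SD, n = 3). SRSF3, a small SR protein that couples splicing to export, had 12026, 11898 and 11716 in WT against 11330, 11047 and 10431 in R320*. The groups did not overlap in counts (log2 fold change -0.12, SE 0.04, limma adjusted p = 0.0111). SRSF3 was not called in RPKM (limma adjusted p = 0.102) or without the intensity trend (0.0922) (all alternatives 0.00297 to 0.102.)

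SRSF5 had 4795, 4449 and 4714 in WT against 4437, 4239 and 4282 in R320*. The lowest WT library stood just above the highest R320* library (log2 fold change -0.11, SE 0.04, limma adjusted p = 0.0399). Its call was lost without WT replicate 1 (limma adjusted p = 0.1625), WT replicate 3 (0.108), R320* replicate 2 (0.131) or R320* replicate 3 (0.0748) (all alternatives 0.0192 to 0.1625.) SRSF4, SRSF8 and SRSF10 were not called, with log2 fold changes from 0.03 to 0.04. SRSF12 was listed at 0 in 5 libraries and at 4.04 in WT replicate 3.

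Both TRA2 genes, which encode SR-like activators of exons rich in GAA, rose, where 26.4% of all genes tested were called higher. TRA2A had 2477, 2525 and 2543 in WT against 2972, 2992 and 2948 in R320*. The groups were well apart, with a log2 fold change of 0.24 (SE 0.04, limma adjusted p = 0.000152). TRA2B had 5421, 5149 and 5541 in WT against 6338, 6059 and 5932 in R320*. It was also higher in each R320* library, by a log2 fold change of 0.19 (SE 0.04, limma adjusted p = 0.0011).

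Of the 4 genes of 3′ splice site recognition, 2 were higher and 1 lower, where 53.7% of all genes tested were called. U2AF2, the subunit that reads the polypyrimidine tract, had 7044, 7270 and 7567 in WT against 8232, 8460 and 8551 in R320*. No R320* library reached down to the WT libraries, and the log2 fold change came to 0.21 (SE 0.04, limma adjusted p = 0.000196). SF3B1, the U2 particle protein at the branch point, had 10200, 10263 and 10174 in WT against 11994, 11650 and 11287 in R320*. It was higher in every R320* library (log2 fold change 0.19, SE 0.03, limma adjusted p = 0.000202). ZRSR2, a U2AF1 relative that reads the 3′ splice site of U12-type introns, had the largest fall of all called members. It had 543.9, 614.1 and 659.3 in WT against 403.9, 401.9 and 420.2 in R320*. The groups did not overlap, and ZRSR2 fell by a log2 fold change of -0.56 (SE 0.09, limma adjusted p = 8.04e-05), or 1.48-fold.

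U2AF1, the subunit that reads the AG at the 3′ splice site, could not be placed from its own count. It had 517.8, 104.7 and 113.3 normalized counts in WT and 108.8, 160.7 and 113.4 in R320*. WT replicate 1 was several times the rest, and the difference was not called (log2 fold change -0.54, SE 0.41, limma adjusted p = 0.287). Without that library the log2 fold change came to 0.20 (limma adjusted p = 0.463), and over the alternatives the adjusted p ran from 0.064 to 0.703.

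U2AF1L5, the copy with the same coding bases, was taken in after its values were seen and is no member. It had 301.2, 277.2 and 289.2 normalized counts in WT and 520.6, 334.4 and 286.8 in R320*, with overlap (log2 fold change 0.35, SE 0.17, limma adjusted p = 0.0879). U2AF1 made up 63.2% of the summed counts of the 2 genes in WT replicate 1, 17.3% in R320* replicate 1 and between 27.4% and 32.5% in the other 4 libraries. In RPKM the 2 genes summed to 246.8, 250.4 and 268.0 in WT against 263.8, 262.7 and 281.4 in R320*. These RPKM sums overlapped. In normalized counts the sums were 819.0, 381.8 and 402.5 in WT against 629.5, 495.1 and 400.2 in R320*. They overlapped too, with WT replicate 1 again the highest. U2AF1 had 3.71 normalized counts per RPKM, against a median of 54.69 over the tested members. Its counts are thus low for its RPKM, and the reason was not tested.

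**Figure D2:**
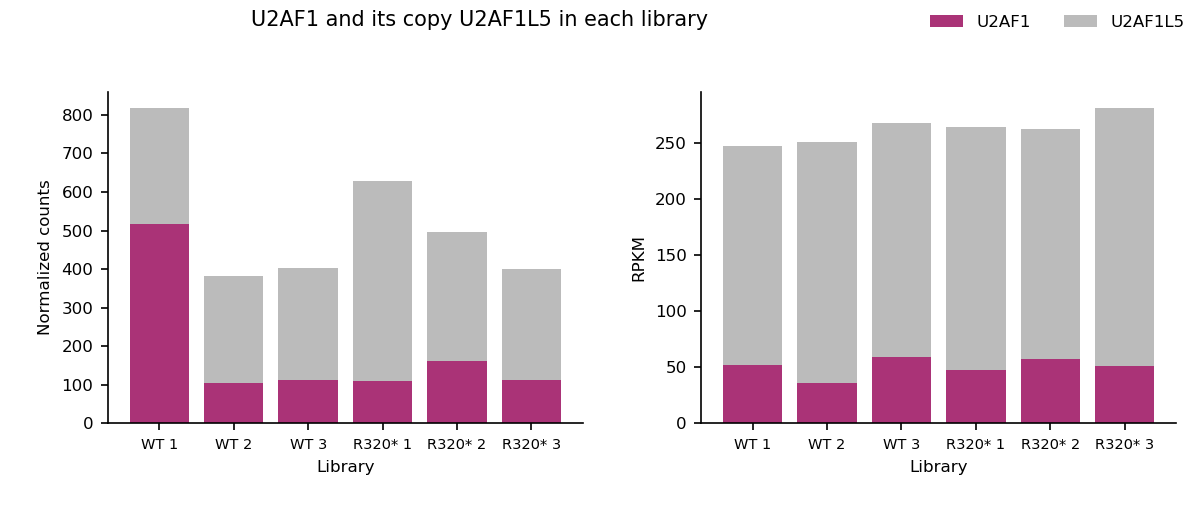
Bars stack U2AF1 and its copy U2AF1L5 in each library, in normalized counts (left) and RPKM (right), with axes from 0. The left panel has 1 library, WT replicate 1, with 517.8 counts for U2AF1, while the RPKM sums lie between 246.8 and 281.4.

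Compared per length, the members covered a wide range, from HNRNPA1 with a mean of 2341 RPKM down to 0. HNRNPA2B1 was next at 1048, followed by HNRNPH1 at 677.0, HNRNPC at 518.8 and HNRNPD at 453.2 RPKM. HNRNPA1 had 2649, 2672 and 2693 RPKM in WT and 1929, 2027 and 2079 in R320*, above HNRNPA2B1 in every library. SRSF3 was the highest SR gene at 341.0 RPKM, with SRSF2 (220.3) and SRSF1 (217.6) too close to each other to be ordered, since their libraries overlapped. ZRSR2, at 8.71 RPKM, was the lowest of the 3′ splice site genes, below SF3B1 (128.0), U2AF2 (124.9) and U2AF1 (50.3). The place of U2AF1 in this order is uncertain. With its copy U2AF1L5 it summed to a mean of 255.1 RPKM in WT and 269.3 in R320*.

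**Figure D3:**
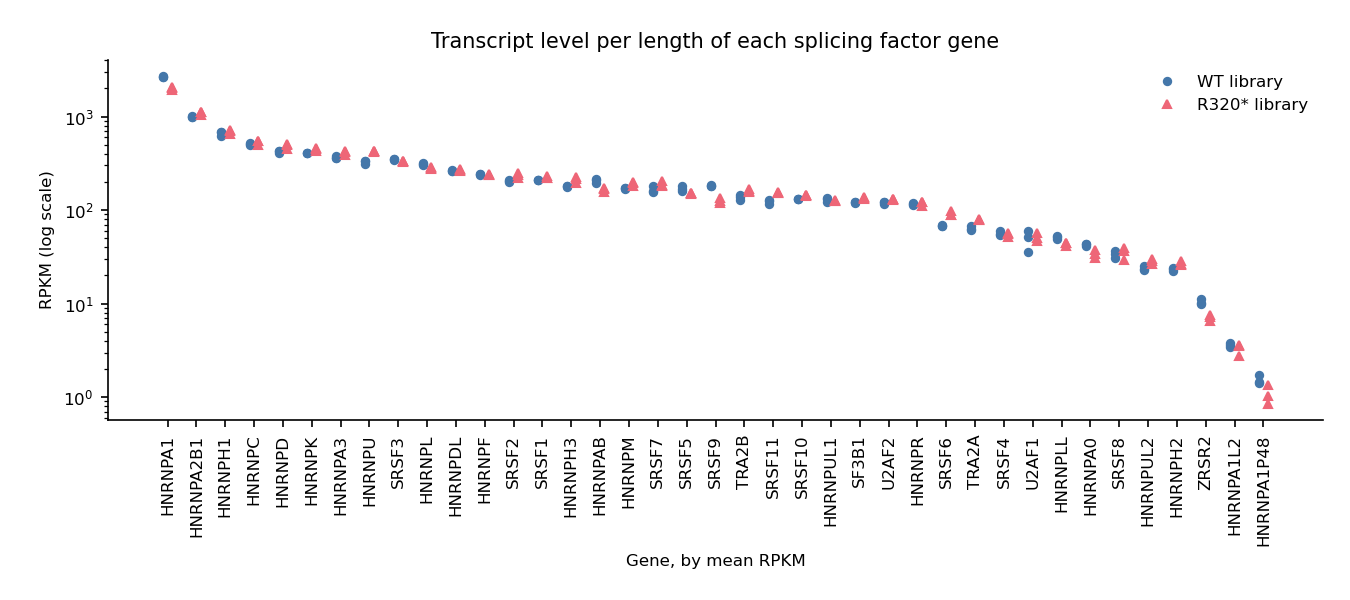
RPKM of each member with a mean above 1, on a log axis, with WT libraries as circles and R320* libraries as triangles, ordered by mean. HNRNPA1 stands at the left with a mean of 2341 RPKM, and its R320* libraries lie below its WT libraries. U2AF1 is drawn without its copy U2AF1L5.

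The summed RPKM of all 44 genes was 10231, 10306 and 10459 in WT against 9814, 10306 and 10313 in R320*. The sums overlapped (difference -187.5, two-sided exact permutation p = 0.6). The RPKM columns themselves summed to less in each R320* library than in any WT library. As a share of its column, the sum was 1.30%, 1.35% and 1.34% in WT against 1.28%, 1.42% and 1.43% in R320*, so the direction of the means turned, again with overlap. Without HNRNPA1, the highest member by mean RPKM, the RPKM sums were 7582, 7634 and 7766 against 7885, 8279 and 8234 (difference 471.9). HNRNPA1 alone fell from a mean of 2671 to 2012 RPKM, by more than the whole difference. Leaving it out therefore fixed the turn of direction in advance. The sums without HNRNPA1 did not overlap, and the two-sided exact permutation p was 0.1, the smallest that 3 libraries against 3 can give. The 2 TRA2 genes summed to 199.8, 188.5 and 212.5 RPKM in WT against 247.1, 237.6 and 234.2 in R320*, without overlap, and the 12 SR genes to 1696 ± 20.8 and 1738 ± 29.2 (SD, n = 3), with overlap. As a share of the column the SR genes did not overlap, at 0.214%, 0.220% and 0.220% in WT against 0.231%, 0.239% and 0.237% in R320*.

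The balance between related factors was compared as the ratio of 2 paralogues within a library, which no scaling factor of a library affects. Of 14 pairs, the ratios of 10 did not overlap between genotypes, each at a two-sided exact permutation p of 0.1, the smallest possible (0.14 after Benjamini-Hochberg adjustment over the pairs). Of all single genes 59.8% did not overlap either. Ratios of other gene pairs were not computed, so whether this count is particular to these pairs was not tested. HNRNPA1 to HNRNPA2B1 had ratios of 1.92, 1.96 and 1.86 in WT against 1.29, 1.30 and 1.31 in R320*. HNRNPD to its neighbour and paralogue HNRNPDL had 1.53, 1.55 and 1.63 against 1.78, 1.98 and 2.03. Both pairs were apart, the first shifted towards HNRNPA2B1 and the other towards HNRNPD.

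SRSF1 to SRSF9 had ratios of 5.45, 5.39 and 4.68 in WT against 7.89, 6.79 and 6.55 in R320*. SRSF3 to SRSF7 had 2.15, 2.24 and 1.92 against 1.67, 1.75 and 1.70. The first moved towards SRSF1 and the other towards SRSF7, without overlap. For TRA2A to TRA2B, which rose side by side, the ratios overlapped, at 0.469 in WT and 0.486 in R320* (exact permutation p = 0.2). Those of HNRNPH1 to HNRNPF, at 1.28 and 1.30, overlapped as well (exact permutation p = 0.7).

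The RPKM table, from the same libraries, gave 17 members higher, 8 lower and 14 not called of 39 tested (log2(RPKM + 0.1), at least 0.5 in at least 3 libraries). There 31.9% of 17769 genes were called, 15.1% higher and 16.8% lower. Of these genes 12258 were protein-coding, as all members are by rule, and no share was taken over the protein-coding genes alone. The genotypes did not overlap for 29 members, against 47.0% of all genes, and here too no background of genes at a like level was taken. Of the members, 13 were higher in both tables and 7 lower in both, with 9 called in neither. The share of all genes called in both was not computed, so these counts have no background. HNRNPA3, a relative of HNRNPA1, was at 26031 ± 482 and 26017 ± 717 in counts (SD, n = 3; limma adjusted p = 0.983) and higher in RPKM, from 369.3 ± 10.7 to 414.3 ± 20.4 (SD, n = 3; log2 fold change 0.16, limma adjusted p = 0.0318). HNRNPL, HNRNPUL2 and SRSF10 were also called in RPKM alone, at log2 fold changes of -0.15, 0.24 and 0.11 (limma adjusted p = 0.0177, 0.0324 and 0.0325). HNRNPH2, not tested in counts, was higher in RPKM (0.22, limma adjusted p = 0.0304).

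Leaving out any of 5 of the 6 libraries lowered the number of members called in RPKM by more than 1.5-fold. Members called fell from 25 to 12 without WT replicate 1 or R320* replicate 3, and to 14 without WT replicate 2, WT replicate 3 or R320* replicate 2. Members called higher fell from 17 to 5, 8 and 8 without WT replicates 1, 2 and 3, and to 7 and 6 without R320* replicates 2 and 3. Without R320* replicate 1, 23 were called, 16 of them higher. Members called lower were 8 with all libraries and 6 or 7 with 1 left out. All genes called in RPKM ran from 4332 to 4995 with 1 library left out, against 5675 with all libraries. Those higher ran from 1954 to 2264 (2692 with all) and those lower from 2168 to 2841 (2983 with all). In normalized counts, the members called ran from 20 to 25 with 1 library left out. All genes called there ran from 6809 to 7251 (7685 with all).

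**Figure D4:**
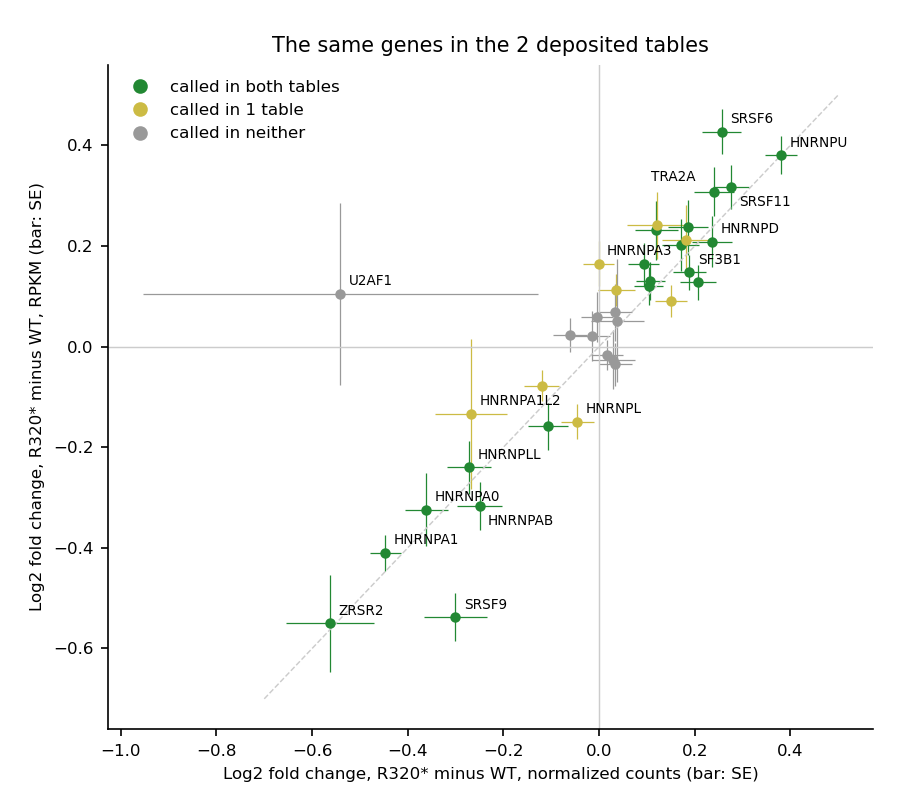
Log2 fold change of each gene tested in both tables, from normalized counts (horizontal) and RPKM (vertical), with bars for the SE and a dashed line of equality. HNRNPU at 0.38 in both and ZRSR2 at -0.56 and -0.55 lie near the line, and U2AF1 lies far from it at -0.54 and 0.11.

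Several of the genes that were lower sat among neighbours that were lower too. For each member, the median log2 fold change of the 25 tested genes on each side on its chromosome was taken as a description. For HNRNPA1 (chromosome 12, 54280726 to 54287087, GRCh38) the neighbour median was -0.71, with 45 of 50 neighbours below 0. HNRNPA1, at -0.45, was above it. For SRSF9 (chromosome 12, 120461672 to 120469748) the median was -0.58, with 48 of 50 below 0, and SRSF9 was at -0.30. HNRNPA0 and HNRNPAB, on chromosome 5, were close to theirs, at -0.36 beside -0.33 and at -0.25 beside -0.27. HNRNPH1, also on chromosome 5, was at 0.03 where its neighbours had a median of -0.31.

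Other members parted from their surroundings. ZRSR2 (chromosome X, 15790484 to 15823260) was at -0.56 beside a neighbour median of -0.03, and HNRNPLL at -0.27 beside 0.02. HNRNPD and HNRNPDL, which lie together on chromosome 4, had neighbour medians of -0.24 and -0.23 and were at 0.24 and -0.06. TRA2A, on chromosome 7, rose by 0.24 beside a median of -0.21. HNRNPU, at 0.38 beside 0.19, was higher than neighbours that were higher themselves. Over all 14157 genes with a position, neighbour medians had a median of 0.02, with 5% below -0.43 and 5% above 0.20. Neighbour medians lay below -0.2 for 8 of 37 members (21.62%), against 9.09% of all these genes. Among those 8 were HNRNPD and HNRNPDL, which share a stretch. Whether members followed their chromosome stretch was not tested.

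**Figure D5:**
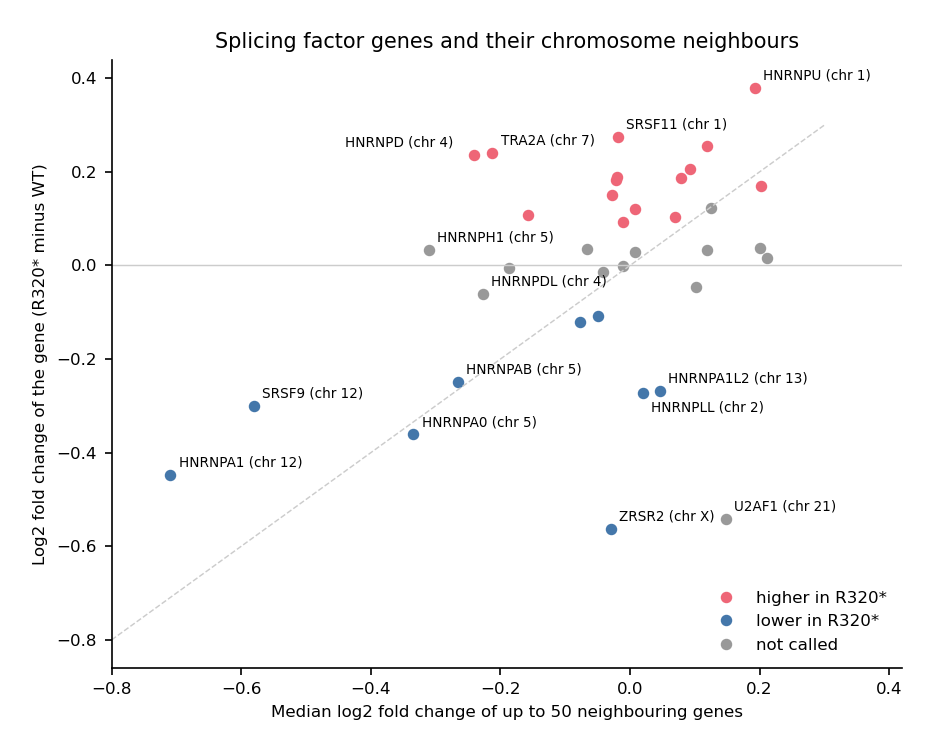
Log2 fold change of each tested member (vertical) against the median of up to 50 neighbouring tested genes (horizontal), coloured by call, with a dashed line of equality. HNRNPA1 and SRSF9, on chromosome 12, lie far left at neighbour medians of -0.71 and -0.58, and ZRSR2 lies low beside a median of -0.03.

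Promoter sequence was read for 39 of the 44 genes from RefSeq (GRCh38.p14), as the 250 bases before the start. The bases just after the start were found in a GENCODE transcript of the gene for 32 of the 39, and the starts of SRSF5 and HNRNPA1L2 lay 40242 and 24900 bases from the centre of their windows in the RPKM table. RUNX proteins are known to bind TGTGGT and its variant TGCGGT, and both were searched on both strands. TGTGGT was in 0 of the 39 member promoters and in 10.98% of 35116 promoters of the same length. TGCGGT was in 5 of 39 (HNRNPH1, HNRNPH3, SRSF10, SRSF11 and SRSF6), or 12.82%, against 5.84% of all. Either RUNX motif was in 12.82% of member promoters against 16.31% of all, so members were not above the background there. By call in normalized counts, TGCGGT was in 3 of 13 higher, 0 of 8 lower and 2 of 13 not called members with a promoter read. CCAAT, a common promoter element, was in 46.15% of member promoters against 32.01%. A match is a description of letters in this window, and no match says nothing of binding elsewhere. The promoters of SRSF11 and SRSF6, the SR genes with the largest rises, are printed with the TGCGGT match in capitals (as its reverse complement), and those of HNRNPU and ZRSR2, the members with the largest called changes in each direction in normalized counts, hold neither motif.
SRSF11, chr1:70205446-70205695, + strand: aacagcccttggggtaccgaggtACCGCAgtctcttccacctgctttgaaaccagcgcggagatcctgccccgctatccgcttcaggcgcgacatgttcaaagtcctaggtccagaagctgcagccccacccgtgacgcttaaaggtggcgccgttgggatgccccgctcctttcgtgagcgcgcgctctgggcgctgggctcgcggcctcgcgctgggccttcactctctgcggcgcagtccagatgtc
SRSF6, chr20:43457646-43457895, + strand: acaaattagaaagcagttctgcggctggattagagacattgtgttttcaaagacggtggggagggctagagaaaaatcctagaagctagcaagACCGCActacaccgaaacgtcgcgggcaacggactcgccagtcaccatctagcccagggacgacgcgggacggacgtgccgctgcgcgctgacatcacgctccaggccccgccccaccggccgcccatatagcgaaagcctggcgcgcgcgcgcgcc
HNRNPU, chr1:244864544-244864793, - strand: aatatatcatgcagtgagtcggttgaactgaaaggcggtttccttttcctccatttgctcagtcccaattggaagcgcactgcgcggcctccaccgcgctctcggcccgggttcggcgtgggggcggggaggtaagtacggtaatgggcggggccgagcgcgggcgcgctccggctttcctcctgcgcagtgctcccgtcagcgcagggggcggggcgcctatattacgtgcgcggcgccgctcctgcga
ZRSR2, chrX:15790234-15790483, + strand: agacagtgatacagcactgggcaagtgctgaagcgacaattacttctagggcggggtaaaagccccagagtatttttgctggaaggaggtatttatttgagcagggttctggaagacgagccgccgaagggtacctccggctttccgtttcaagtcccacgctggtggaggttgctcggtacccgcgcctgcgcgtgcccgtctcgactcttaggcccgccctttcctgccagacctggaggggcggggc

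The annotation of the members also shows how many carry transcripts with an early stop. All 11 tested SR genes had an annotated transcript of the nonsense-mediated decay kind, and so had 74.36% of the 39 members tested in RPKM, against 43.82% of 12258 protein-coding genes tested. Gene totals do not separate these transcripts, so productive and unproductive splicing were not measured here.

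Genes that work with these factors were read from lists of other splicing genes. Beside every list stand the shares of all genes tested, 26.4% higher and 27.4% lower. No list was tested against these shares. Of 13 SR-related proteins, 9 were higher and 0 lower, and the median log2 fold change was 0.20. They included RBM39, a U2AF-like splicing factor (8498 ± 193 to 11096 ± 130 normalized counts, SD, n = 3), THRAP3 (6560 ± 183 to 8819 ± 306) and SREK1 (5075 ± 141 to 6441 ± 238). Of 10 tested genes in the list of SR protein kinases and nuclear import, 3 were higher and 3 lower. TNPO3, the importer of SR proteins, was not called (log2 fold change -0.07, limma adjusted p = 0.1). PRPF4B (0.37), TNPO1, an importer of hnRNP proteins such as HNRNPA1 (0.26), and SRPK1, a kinase that phosphorylates SR proteins in the cytoplasm (0.23), had the smallest adjusted p (1.41e-06, 4.71e-05 and 2.91e-05, limma).

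Of 10 other hnRNP proteins 5 were higher and 2 lower. SYNCRIP, a relative of HNRNPR, rose from 9259 ± 293 to 12605 ± 512 normalized counts. PCBP2, a poly(C)-binding relative of HNRNPK, fell from 17599 ± 560 to 12561 ± 269, on chromosome 12 beside a neighbour median of -0.66. RBMX fell from 17730 ± 200 to 15184 ± 338 (SD, n = 3; limma adjusted p = 5.75e-08, 5.28e-09 and 2.01e-05 for the 3 genes).

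In the U5 and tri-snRNP list 8 of 14 were higher and 1 lower, and the median log2 fold change was 0.21. There PRPF3 rose by 0.67, PRPF4 by 0.49 and EFTUD2 by 0.34 (limma adjusted p = 1.73e-08, 1.31e-06 and 5.48e-07). In the U2 and branch point list 8 of 16 were higher and 3 lower, among them DDX46 (0.24), SF3B2 (0.19) and PHF5A (0.30), with limma adjusted p = 8.82e-05, 0.00015 and 0.00039. In the U1 list 4 of 10 were higher and 2 lower, with SNRNP70 at 0.24 and SNRPA at -0.16 (limma adjusted p = 0.000331 and 0.000992), and SNRNP70 was not called in RPKM (limma adjusted p = 0.0801). These lists are described by counts alone, and no difference between them was tested.

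The minor spliceosome, where ZRSR2 also acts, had 2 of 9 genes higher and 4 lower, with a median of -0.24. ZCRB1, a U11/U12 protein on chromosome 12, fell from 2295 ± 94.3 to 1330 ± 68.9 normalized counts (SD, n = 3; log2 fold change -0.79, limma adjusted p = 4.8e-09), beside a neighbour median of -0.50. ARMC7 was at -0.64 and PDCD7, another U11/U12 protein, at 0.32 (limma adjusted p = 3.3e-05 and 0.000309), though PDCD7 was not called in RPKM (0.04, limma adjusted p = 0.700). In the Sm and LSm ring proteins 3 of 13 were higher and 6 lower, with LSM8 at -0.51, SNRPF at -0.46 beside a neighbour median of -0.60, and SNRPD3 at 0.19 (limma adjusted p = 2.83e-07, 1.07e-07 and 0.000991).

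Of 15 genes of nonsense-mediated decay and the exon junction complex, 2 were higher, 4 lower and 9 not called. The 2 higher ones were EIF4A3, the helicase that anchors the complex (0.38), and MAGOH (0.42), while RBM8A, the partner of MAGOH, fell (-0.28), with limma adjusted p = 6.19e-06, 6.81e-05 and 4.69e-05. RBM8A was not called in RPKM (log2 fold change -0.04, limma adjusted p = 0.521).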

How the data were processed

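RNA was sequenced from 6 K562 libraries, 3 per genotype. The tools named in the submitters' processing notes are Salmon, HISAT2, DESeq2 and featureCounts, on the hg38 build. Versions, settings, use of strand and which tool made which table: not given in the sources used here. The deposited signal values were gene counts that the authors divided by 1 factor per library. The deposited RPKM values are named so by the authors' file title, and their columns sum to between 721735 and 786389. Here, log2(normalized count + 1) was fitted for genes reaching 10 in 3 or more libraries, and log2(RPKM + 0.1) for genes reaching 0.5 in 3 or more, with limma 3.58.1 in R 4.3.3 (empirical Bayes, intensity trend). Benjamini-Hochberg adjustment ran over all genes tested, and calls were made below 0.05. The fit was tested on simulated data. Fold changes on these scales understate changes of low genes.

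Named in full are U2AF1, U2AF2, SF3B1, ZRSR2, the TRA2 genes, the 4 largest called changes each way among hnRNP and among SR genes, and the 2 highest genes in RPKM; each list of other genes is given by up to 3 with the smallest adjusted p. Some items that these rules take in are not reported here. Members and lists were chosen with earlier results of these data known. Shared words, coding comparisons, U2AF1L5, transcript kinds, motifs and the promoters shown were chosen after the values were seen. Words were of 31 bases, taken from the protein-coding transcripts of each member. Python 3.11.15, NumPy 2.4.6 and pandas 2.3.3 were used, and figures were drawn with matplotlib 3.10.9. Alternatives were other pseudocounts, filters, scalings and variance models, a replicate block, the RPKM table and leaving out each library.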

Additional observations from a re-analysis of the deposited data

How the results depend on the processing

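Of the 24 members called in normalized counts, 15 kept their call under all 15 alternatives and 9 lost it under at least 1, of which 4 with a library left out; 4 members not called gained a call. Without the intensity trend 17 members were called. No called member changed direction under these alternatives. Members that were not called and turned sign were, in the RPKM table, HNRNPA3 (0.165), HNRNPC (0.0596), HNRNPDL (0.0229), HNRNPF (-0.017), HNRNPR (0.0205), HNRNPUL1 (-0.0349), SRSF4 (-0.0259) and U2AF1 (0.1054). Under quantile normalization they were HNRNPA3 (0.029) and HNRNPC (0.0311), where the median of all genes moved to 0.04. With a library left out they were U2AF1 without WT replicate 1 (0.205), HNRNPA3 (0.0137) and HNRNPR (0.0082) without WT replicate 2, HNRNPA3 (0.0129), HNRNPC (0.0262) and HNRNPR (0.0166) without R320* replicate 1, and HNRNPA3 without R320* replicate 3 (0.0077). The cause was not tested. Over the libraries left out, the log2 fold change ran from -0.0236 to 0.0137 for HNRNPA3, from -0.0248 to 0.0262 for HNRNPC, from -0.0347 to 0.0166 for HNRNPR and from -0.9427 to 0.205 for U2AF1. With 1 library left out, members called ran from 20 to 25 in counts and from 12 to 23 in RPKM. All genes called ran from 6809 to 7251 in counts (7685 with all libraries) and from 4332 to 4995 in RPKM (5675 with all). In RPKM, 12, 14 and 14 members were called without WT replicates 1, 2 and 3, and 14 and 12 without R320* replicates 2 and 3. Of these members 5, 8, 8, 7 and 6 were higher. Replicate numbers did not pair the libraries (correlations of deviations 0.032, -0.003 and -0.003). The replicate block changed no member's call in counts and left 11 members higher in RPKM against 17 without it. Summed RPKM differed by 471.893 without HNRNPA1 and by -187.5 with it. The planned TMM, edgeR and DESeq2 alternatives were not run. HNRNPH2, SRSF12 and HNRNPCL1 to HNRNPCL4 were too low in counts to test.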
